A study of Drosophila melanogaster with 2 samples.

Results

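The pericentric heterochromatin of the left arm of chromosome 3 was taken as the stretch of 3L that follows position 22950000 of BDGP Release 5 and runs to position 24543557, 1.59 Mb at the centromeric end of the arm. It was divided into 300-bp bins, and 135 bins that overlap a piRNA cluster at 23273964 to 23314199 were left out. Of the remaining 5177 bins, 4376 had at least 1 tag in either H3K9me2 library and form the region described here, out of 446655 such bins in the whole series (0.980%). The other 801 bins (15.5%) had no tag in either library. The boundaries are set by position and not by tag counts, but the region was chosen with earlier results of these data known.

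The study precipitated chromatin of whole Drosophila melanogaster larvae of the third instar with an antibody to histone H3 dimethylated at lysine 9 (H3K9me2) and sequenced the recovered DNA. One library came from EHMTDD1 larvae, labelled EHMT-KO, which carry an imperfect excision of the P-element KG01242 that removes the start of the EHMT gene and leaves no detectable protein. The other came from EHMT+ larvae, labelled wild type, in which the same P-element was excised precisely in the same genetic background. With 1 library per genotype, no difference between EHMTDD1 and EHMT+ has a replicate check, no p-value was computed, and genotype and library cannot be told apart. The larvae hold many tissues, the number and sex of the pooled animals are not given in the sources used here, and the position of EHMT was not used to check the labels.

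Pericentric heterochromatin flanks the centromere, is rich in transposon remnants and other repeats, and is compacted in most cells. Its histone H3 carries methylated lysine 9, a mark that the chromodomain protein HP1 binds and that is written in Drosophila pericentric chromatin mainly by Su(var)3-9. EHMT, the fly homologue of the mammalian enzyme G9a, also dimethylates lysine 9, and is known mainly for acting on genes in euchromatin. Reads from repeats that occur at many places have no unique position, so only the part of this chromatin with unique sequence is visible in such data.

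Each library held 7043913 tags, since the authors had reduced them to the same total, and the tags had been extended to 300 bp. Bin counts give a tag to each bin that it touches. Totals and densities counted each tag once, at its midpoint. The bins of the region held 130826 tags in EHMTDD1 and 132227 tags in EHMT+, and close to equal numbers of both strands. The intervals given below are 95% intervals for counting error only. Those for shares of bins are too narrow, because 1 tag is often counted in adjacent bins.

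The label was first checked against the mark itself, by setting the region against the 1 Mb before it, 21950001 to 22950000, of which 3200 bins had a tag. EHMTDD1 had 99.7 tags per kb in the pericentric bins and 60.6 tags per kb in the 1 Mb before them, a ratio of 1.64 (1.63 to 1.66). EHMT+ had 101 tags per kb in the pericentric bins and 59.9 tags per kb before them, a ratio of 1.68 (1.67 to 1.70). By tag density the region thus stood above its neighbour in both libraries, and by a similar factor. The total differed little between the genotypes, with an EHMT+ to EHMTDD1 ratio of 1.01 (1.00 to 1.02) in the region and of 0.988 (0.976 to 0.999) in the 1 Mb before it.

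The typical bin gave another picture. In EHMTDD1 the median bin had 35 tags in the region and 35 tags in the 1 Mb before it, a ratio of 1.00. In EHMT+ the median bin had 58 tags in the region and 34 tags before it, a ratio of 1.71. The region was therefore above its neighbour by mean and by median in EHMT+, and by mean but not by median in EHMTDD1. When bins without a tag were included, a choice made after seeing the data, the median in EHMTDD1 was 0.657 times that of the 1 Mb before it, against 1.39 times in EHMT+.

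**Figure D1:**
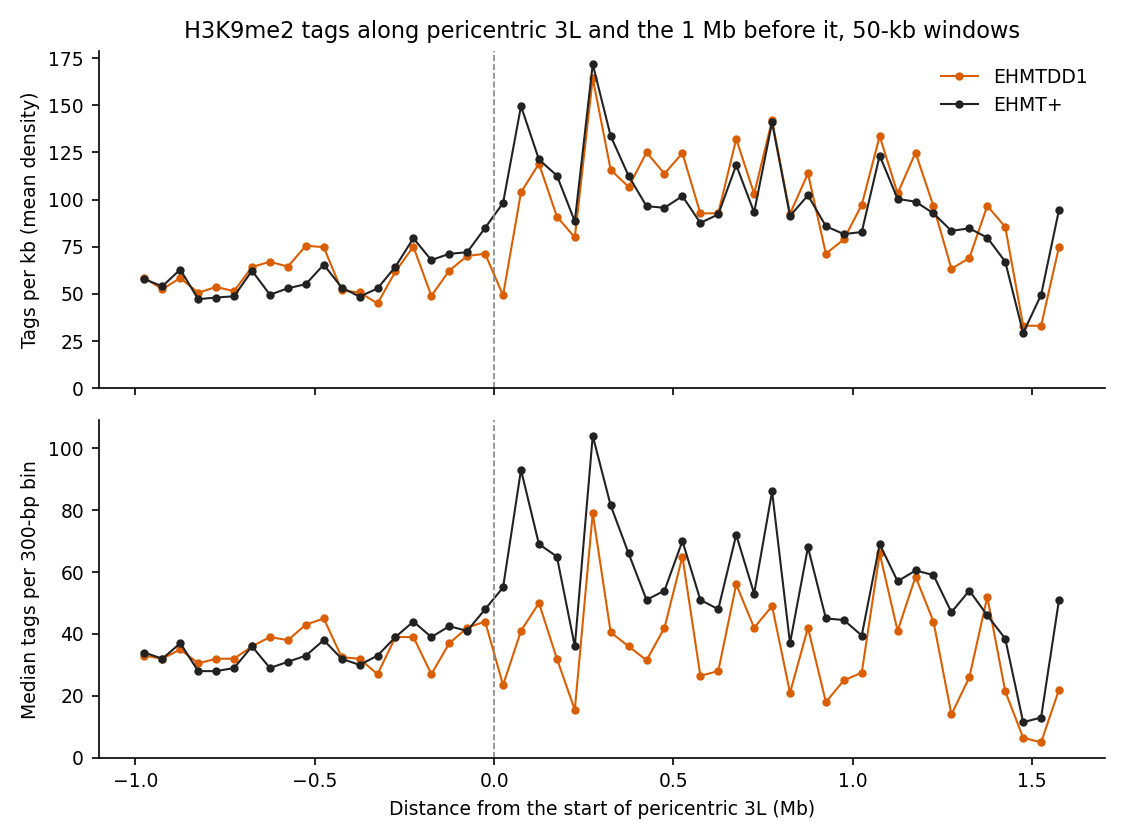
H3K9me2 in consecutive 50-kb windows against distance from the start of the pericentric region in Mb (horizontal axis), as tags per kb (upper panel) and as the median number of tags per 300-bp bin (lower panel), EHMTDD1 in orange and EHMT+ in black, with the 1 Mb before the region left of the dashed line. In the upper panel the lines cross repeatedly over the region, and in the lower panel the median is lower in EHMTDD1 in 31 of the 32 pericentric windows.

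The difference between mean and median was a difference in how unevenly the tags were spread. Pericentric bins had 59.7 ± 64.1 tags in EHMTDD1 and 60.3 ± 41.5 tags in EHMT+ (mean ± SD over 4376 bins). The mean was 1.71 times the median in EHMTDD1 and 1.04 times the median in EHMT+. In the 1 Mb before the region the mean was close to the median in both libraries, at 1.04 times in EHMTDD1 and 1.06 times in EHMT+. The spread was wider in EHMTDD1 there too, with an SD of 19.0 tags in EHMTDD1 and 14.0 in EHMT+. In the euchromatic arms the SD was 19.8 tags in EHMTDD1 and 14.3 in EHMT+. The same length at the centromeric end of the other arms had a lower mean over median in EHMTDD1 than 3L. It was 1.56 on 2L, 1.43 on 2R, 1.12 on 3R and 1.13 on X. The EHMT+ values there were 1.20 on 2L, 1.03 on 2R, 1.13 on 3R and 1.05 on X. Those ends were taken by length alone, and no piRNA cluster was left out of them. EHMTDD1 had 88.4 tags per kb on 2L, 127 on 2R, 60.0 on 3R and 52.7 on X. It had 99.7 in the region and 60.6 in the 1 Mb before it. The ends of 3R and X were thus no denser in EHMTDD1 than the 1 Mb before the region. In EHMT+ they were denser than it, with 67.8 tags per kb on 3R and 63.0 on X against 59.9. The paper describes the 3R end as nearer to euchromatin than those of 3L, 2L and 2R.

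Both tails of the distribution were wider in EHMTDD1. The 25th percentile of the pericentric bins was 9 tags in EHMTDD1 and 22 tags in EHMT+. The 90th percentile was 160 tags in EHMTDD1 and 116 tags in EHMT+. Relative to the same percentile of the 1 Mb before it, the region in EHMTDD1 was at 0.364 for the 25th percentile, 2 for the 75th percentile and 2.76 for the 90th percentile. In EHMT+ those ratios were 0.815, 2.12 and 2.15. Low bins thus lay below the neighbouring chromatin and high bins above it in both libraries, with a larger distance between them in EHMTDD1.

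**Figure D2:**
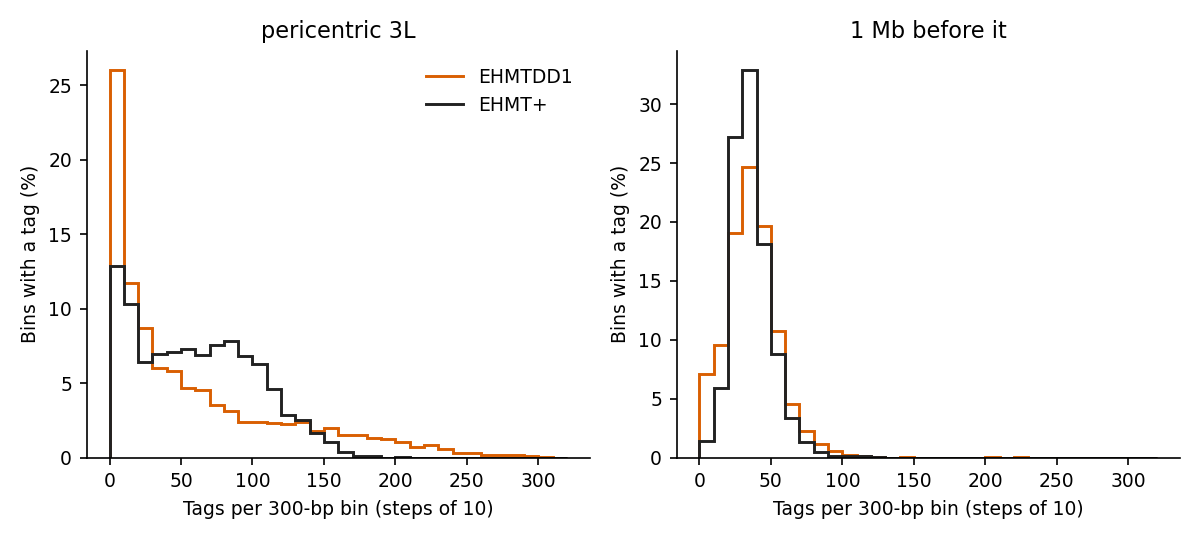
Share of bins with a tag in percent (vertical axis) by tags per 300-bp bin in steps of 10 (horizontal axis), EHMTDD1 in orange and EHMT+ in black, for the pericentric region (left) and the 1 Mb before it (right). In the region 26.0% of bins in EHMTDD1 and 12.9% in EHMT+ have fewer than 10 tags, and the EHMTDD1 line has the longer tail, up to 300 tags against 200 in EHMT+. In the 1 Mb before it 7.09% of bins in EHMTDD1 and 1.41% in EHMT+ have fewer than 10 tags.

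The poor and the rich bins can be counted. Fewer than 10 tags were found in 1139 bins (26.0%) in EHMTDD1 and in 565 bins (12.9%) in EHMT+, and 490 bins were this low in both libraries. In the 1 Mb before the region the shares were 7.09% in EHMTDD1 and 1.41% in EHMT+. In the euchromatic arms they were 9.58% in EHMTDD1 and 1.73% in EHMT+. No tag at all was found in 262 bins (5.99%) in EHMTDD1 and in 21 bins (0.480%) in EHMT+, against 0.629% in EHMTDD1 and 0.0863% in EHMT+ in the euchromatic arms. At the other end, 1020 bins in EHMTDD1 and 861 bins in EHMT+ had at least 100 tags, of which 616 were shared, 60.4% of those of EHMTDD1 and 71.5% of those of EHMT+. At least 150 tags were reached by 532 bins in EHMTDD1 and 76 bins in EHMT+, and at least 200 tags by 197 bins in EHMTDD1 and 1 bin in EHMT+. In the 1 Mb before the region 19 bins in EHMTDD1 and 10 in EHMT+ had at least 100 tags, with 7 shared. In the euchromatic arms 0.898% of bins in EHMTDD1 and 0.322% in EHMT+ did, against 23.3% and 19.7% in the region. More low and more high bins in EHMTDD1 than in EHMT+ were thus found outside the region too.

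The richest bins had many tags in both libraries. The bin at 23392801 to 23393100 was the highest of EHMTDD1, with 300 tags in EHMTDD1 and 130 tags in EHMT+. The bin at 23714401 to 23714700 was the highest of EHMT+, with 256 tags in EHMTDD1 and 200 tags in EHMT+. Even where EHMT+ peaked, EHMTDD1 had more tags. The richest 10% of the bins held 33.9% of all bin counts in EHMTDD1 and 22.5% in EHMT+, against 20.2% in EHMTDD1 and 18.0% in EHMT+ in the 1 Mb before the region. At the other centromeric ends this share in EHMTDD1 was 36.4% on 2L, above that of the region. It was lower on 2R (31.5%), 3R (24.5%) and X (26.8%).

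Bin by bin, the libraries were compared by the log2 ratio of EHMT+ to EHMTDD1 after adding 1 to each count, so that a positive value means fewer tags in EHMTDD1. Over the 4376 pericentric bins its mean was 0.61, its median 0.25 and its SD 1.41. The 1 Mb before the region had a mean of 0.12, a median of -0.05 and an SD of 0.86, and the euchromatic arms, taken as X and both arms of chromosomes 2 and 3 less this length at their centromeric ends, had a mean of 0.16, a median of 0.00 and an SD of 0.86. The pericentric values ran from -1.02 at the 5th percentile to 3.32 at the 95th. Within 0.5 of 0 lay 32.3% of the pericentric bins, 58.1% of the bins in the 1 Mb before them and 57.5% of the euchromatic bins. The near-equal totals of the region were thus made up of unequal bins. Pearson's r between the log2 counts of the libraries, after adding 1, was 0.76 over the pericentric bins and 0.56 over the bins before them, as a description over bins that share tags.

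**Figure D3:**
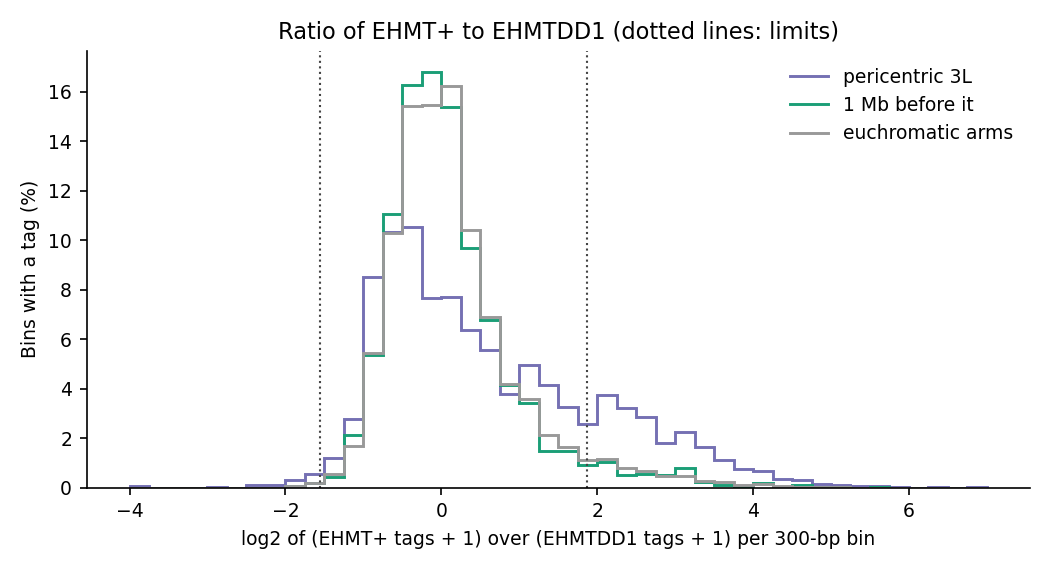
Share of bins with a tag in percent (vertical axis) by log2 ratio of EHMT+ to EHMTDD1 per 300-bp bin (horizontal axis, positive where EHMTDD1 has fewer tags) for the pericentric region, the 1 Mb before it and the euchromatic arms, with dotted lines at -1.56 and 1.87. The pericentric line is the widest of the 3, with an SD of 1.41 against 0.86 in both others, and has its longer tail on the positive side.

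Limits were placed 2 SD to either side of the euchromatic mean, at log2 ratios of 1.87 and -1.56. Above the upper limit, that is, past a ratio of 3.67 in favour of EHMT+, lay 886 pericentric bins (20.2%, 19.1 to 21.5), against 4.97% of the euchromatic bins and 151 bins (4.72%) of the 1 Mb before the region. Below the lower limit, past a ratio of 2.95 in favour of EHMTDD1, lay 47 pericentric bins (1.07%), against 0.241% of the euchromatic bins and 9 bins of the 1 Mb before the region. Both shares were about 4 times the background, and bins with fewer EHMTDD1 tags were far more numerous than the opposite. The other centromeric ends also exceeded the upper limit often, with 16.0% of bins on 2L, 15.5% on 2R, 9.06% on 3R and 11.3% on X. The ends of 3R and X had tag densities closer to that of the 1 Mb before the region than to that of the region.

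A plain 2-fold threshold gave the same order. EHMTDD1 was at least 2-fold lower in 1501 bins (34.3%), against 13.1% of the euchromatic bins. It was at least 2-fold higher in 270 bins (6.17%), against 3.07% of the euchromatic bins. Sparse bins contributed only part of this. Of the 3695 bins whose counts summed to at least 20 over the libraries, 634 (17.2%) were above the upper limit, against 4.12% of the euchromatic bins held to the same minimum. Below the lower limit were 20 of them (0.541%), against 0.178% of the euchromatic bins.

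Bins above the upper limit had a median of 4 tags in EHMTDD1 and 41 tags in EHMT+, and 204 of the 886 had no EHMTDD1 tag. Bins in which EHMTDD1 was at least 2-fold higher had a median of 41 tags in EHMTDD1 and 16 tags in EHMT+. The 2605 bins within 2-fold were rich in both libraries, with a median of 71 tags in EHMTDD1 and 72 tags in EHMT+. Bins with at least 2-fold fewer EHMTDD1 tags supplied 6.34% of all bin counts in EHMTDD1 and 26.5% in EHMT+.

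The direction changed with the number of tags in a bin. The median log2 ratio was 1.32 in the 681 bins with 1 to 19 tags in both libraries together, 0.86 in the 637 bins with 20 to 49 and 1.04 in the 917 bins with 50 to 99. It was 0.25 in the 1216 bins with 100 to 199 tags and -0.53 in the 888 bins with 200 to 399. EHMTDD1 had more tags than EHMT+ in 787 (88.6%) of those 888 bins, with a median of 155 tags in EHMTDD1 and 111 tags in EHMT+. In the 37 bins with 400 tags or more EHMTDD1 was higher in every bin, with a median of 273 tags in EHMTDD1 and 162 tags in EHMT+. Poorly tagged pericentric bins thus had fewer tags in EHMTDD1 and richly tagged bins had more. The sum that orders the bins is made of the same counts as the ratio. The 1 Mb before the region had the same turn of direction, with medians of 1.00 in its 60 bins with 1 to 19 tags, 0.58 in 521 bins with 20 to 49, -0.10 in 2171 bins with 50 to 99, -0.22 in 438 bins with 100 to 199 and -0.36 in 10 bins with 200 to 399. Whether the turn differed between the region and the 1 Mb before it was not tested.

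The bin differences averaged out over distance. Up to 3000 bp the SD of the log2 ratio fell by a smaller factor in the region than before it. From 3000 to 30000 bp it fell by a larger factor in the region. Each tag was counted once, and windows with fewer than 3 tags per 300 bp over both libraries were left out. In windows of 300 bp the SD of the log2 ratio was 1.53 in the region and 1.04 in the 1 Mb before it. In windows of 3000 bp it was 1.06 in the region and 0.41 before it, and in windows of 30000 bp 0.39 in the region and 0.23 before it. At 3000 bp the other centromeric ends had an SD of 0.73 on 2L, 0.82 on 2R, 0.53 on 3R and 0.66 on X. Tag density differed between these ends, as given above. The log2 ratios of bins 600 bp apart were correlated with r = 0.44 in the region and 0.26 before it, and those of bins 15 kb apart with r = 0.02 in the region and 0.09 before it. Each of these values comes from 1 pair of libraries, and the differences between regions were not tested.

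**Figure D4:**
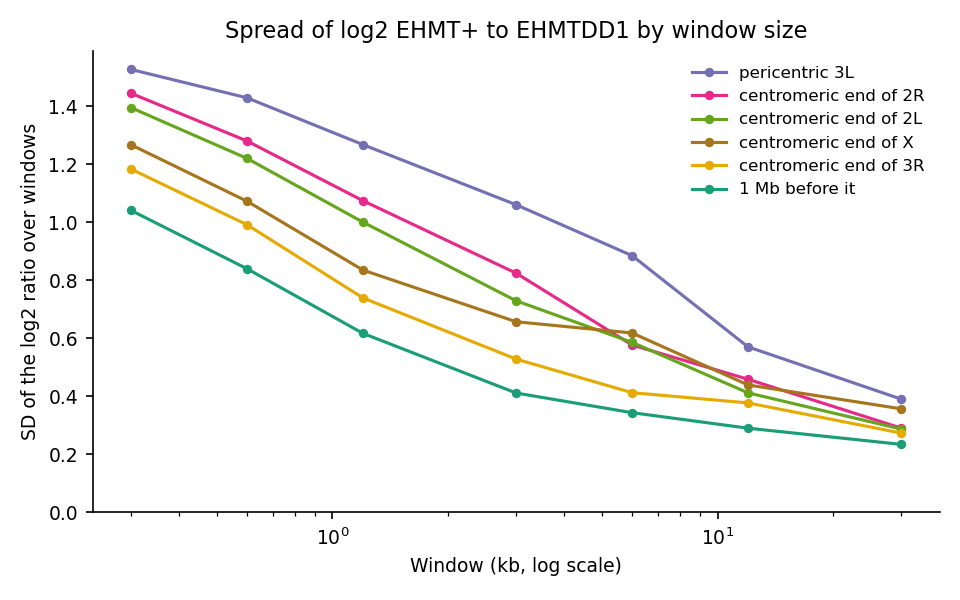
SD of the log2 ratio of EHMT+ to EHMTDD1 over windows (vertical axis) against window size in kb on a log scale (horizontal axis) for the pericentric region of 3L, the centromeric ends of the other arms and the 1 Mb before the region. The 3L line lies above the others at each window size plotted, with 1.06 in windows of 3000 bp against 0.41 in the 1 Mb before it.

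Along the region, sums and medians went apart. In the 16 windows of 100 kb, the sum of tags was lower in EHMTDD1 than in EHMT+ in 8, whereas the median bin was lower in EHMTDD1 in all 16. In the 10 windows of the 1 Mb before it, the sum was lower in EHMTDD1 in 6 and the median bin in 5. In 10-kb windows, EHMTDD1 had the lower sum in 75 and the lower median in 112 of 150. A lower EHMTDD1 median was therefore found in each 100-kb window, but not in each 10-kb window. The comparison within bins was less uniform: the median log2 ratio per bin was above 0 in 10 of the 16 windows, 0 in 2 and below 0 in 4, down to -0.32 at 23350001 to 23450000.

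The window at the border with euchromatin differed most. In the first 100 kb, up to 23050000, 7174 tags were found in EHMTDD1 and 11526 tags in EHMT+, a ratio of EHMT+ to EHMTDD1 of 1.61 (1.56 to 1.65), the highest of the 16. Its first 50 kb had 49.2 tags per kb in EHMTDD1 and 98.2 tags per kb in EHMT+, while the 50 kb before the border had 71.3 tags per kb in EHMTDD1 and 85.0 tags per kb in EHMT+. The density of EHMT+ was thus higher on the pericentric side of the border, and that of EHMTDD1 lower. Without this 100-kb window, a choice made after seeing the data, the median log2 ratio of the region was 0.18 and not 0.25.

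Further in, the ratios lay on both sides of 1. The lowest was in the window at 24350001 to 24450000, with 4304 tags in EHMTDD1 and 3459 tags in EHMT+, a ratio of 0.804 (0.768 to 0.841). EHMTDD1 had most tags at 23650001 to 23750000, with 11426 tags in EHMTDD1 and 10934 tags in EHMT+. EHMT+ had most tags in the 100 kb that end at 23250000, with 11068 tags in EHMTDD1 and 11739 tags in EHMT+. Both of these windows were rich in the other library too. EHMTDD1 had fewest tags in the last, shorter window from 24450001 on, with 3661 tags in EHMTDD1 and 4825 tags in EHMT+, a ratio of 1.32 (1.26 to 1.38). When the region was begun 200 kb further in, the ratio of totals turned to 0.966.

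At 10 kb the largest differences in both directions stood out among windows whose tags summed to at least 100. The window at 23850001 to 23860000 had 67 tags in EHMTDD1 and 432 tags in EHMT+, a ratio of 6.45 (4.98 to 8.47). The next highest began at 24210001, 24260001, 24380001 and 23770001, with ratios from 4.52 to 3.47. At the other end, the window that ends at 23160000 had 154 tags in EHMTDD1 and 19 tags in EHMT+, 8.11 times more in EHMTDD1 (5.02 to 13.8). The next 4, which began at 23370001, 24430001, 24330001 and 24350001, had 2.21 to 1.61 times more tags in EHMTDD1. The window that ends at 23160000 thus stood apart among those higher in EHMTDD1. Several of these windows were partly empty. A tag in either library was found in 6 of its 33 bins, and in 17 of 33 at 23370001. At 24430001 it was 18 of 34 bins, at 24330001 8 of 33 and at 24350001 33 of 33. Among the 5 windows higher in EHMT+ the share ran from 19 of 33 at 24260001 to 32 of 33 at 23850001.

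Bins above the upper limit fell into 372 runs. A single bin made up 161 of them, and 66 had 4 or more bins, with 386 bins in all. The 1 Mb before the region had 86 such runs, of which 6 had 4 or more bins. Bins below the lower limit formed 35 runs, 27 of them single bins, and none was longer than 4 bins. Runs are longer where a class of bins is more common and because adjacent bins share tags, so these counts do not compare how clustered the classes are.

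The longest run, at 23852101 to 23856600, had 15 bins. Its bins had 0 to 3 tags in EHMTDD1, with 0 in 11 of them, and 4 to 88 tags in EHMT+. Counted once, 4 tags of EHMTDD1 and 253 tags of EHMT+ fell in it, a ratio of 63.3 (24.4 to 234). A run of 12 bins followed after 1 bin, at 23856901 to 23860500, with 7 tags in EHMTDD1 and 146 tags in EHMT+. Over both, 8400 bp held 11 tags in EHMTDD1 and 399 tags in EHMT+, a ratio of 36.3 (20.1 to 73.3). These 8400 bp hold most of the EHMT+ tags of the 10-kb window at 23850001.

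In the other long runs EHMTDD1 was low, and 1 bin of the run at 24227401 had no EHMTDD1 tag. Stretches of at least 300 bp without EHMTDD1 reads, described below, also lay inside the runs at 24227401 and 24020401. The run of 14 bins at 24227401 to 24231600 had 44 tags in EHMTDD1 and 398 tags in EHMT+, a ratio of 9.05 (6.61 to 12.6). The run of 11 bins at 23730901 to 23734200 had 49 tags in EHMTDD1 and 420 tags in EHMT+, and the run of 10 bins at 24020401 to 24023400 had 33 tags in EHMTDD1 and 259 tags in EHMT+. Each of these bins had at least 18 tags in EHMT+, and at most 21 in EHMTDD1.

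The longest runs below the lower limit were short. The run of 4 bins at 24039301 to 24040500 had 99 tags in EHMTDD1 and 29 tags in EHMT+, 3.41 times more in EHMTDD1 (2.24 to 5.36). The run of 3 bins at 23158501 to 23159400 had 129 tags in EHMTDD1 and 1 tag in EHMT+. The other 3, at 24414001 to 24414900, 24433201 to 24433800 and 24428401 to 24429000, had 8 to 40 tags in EHMTDD1 and 1 to 9 tags in EHMT+. Of these, the run at 23158501 alone had 1 tag or fewer in EHMT+ beside more than 100 in EHMTDD1.

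Stretches with reads in 1 library were sought with the 36-bp reads before extension, as at least 300 bp without any read of one library and with at least 12 reads of the other. The region held 148 stretches without EHMTDD1 reads, 95.3 per Mb, against 56.0 per Mb in the 1 Mb before it and 67.3 per Mb in the euchromatic arms. Such a stretch needs 12 EHMT+ reads, so more sequence can qualify where EHMT+ is denser. EHMT+ had 101 tags per kb in the region, 59.9 before it and 52.4 in the euchromatic arms. The numbers per Mb are not adjusted for this, so they do not compare how readily EHMTDD1 reads were missing. From one EHMTDD1 read to the next the 148 stretches covered 194 kb (12.5% of the region), with a median length of 577 bp. The EHMT+ reads in them spanned 106 kb (54.6% of that length), with a median span of 389 bp, and the rest had no read of either library. Some long ones were mostly such empty sequence. That at 24331630 to 24340143, 8514 bp, had its 23 reads of EHMT+ within 257 bp. The region held 1 stretch without EHMT+ reads, against none in the 1 Mb before it and 0.315 per Mb in the euchromatic arms. Stretches empty in EHMTDD1 were found in each of the 16 windows of 100 kb, from 2 at 24050001 to 24150000 up to 22 at 23850001 to 23950000, which also had the highest share of bins above the upper limit (32.9%).

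The stretch with most reads, at 23386248 to 23387489, had no read of EHMTDD1 and 192 reads of EHMT+, 110 of them on the plus strand. The absence of EHMTDD1 reads is what defines a stretch, so no fold is given. Most bins in the several kb before it were empty in both libraries. The bins from its end on had 12, 11 and 11 tags in EHMTDD1 and 123, 85 and 90 tags in EHMT+, and the 10 kb after it as a whole had 2163 tags in EHMTDD1 and 1633 tags in EHMT+. Few EHMTDD1 tags thus continued past its end, before bins with more tags in EHMTDD1 than in EHMT+. The next ones, at 23852579 to 23855134 and 23855179 to 23859258, had no read of EHMTDD1 and 156 reads of EHMT+ each, and lie in the pair of long runs above. The stretches at 24485655 to 24486488 and 23553648 to 23554290 had no read of EHMTDD1 and 61 and 59 reads of EHMT+.

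The stretch without EHMT+ reads ran from 23158515 to 23166440, 7926 bp, and had 127 reads of EHMTDD1, 63 of them on the plus strand, and, by definition, none of EHMT+. All 127 reads lay within 423 bp, at 23158644 to 23159066, and 22 of the 25 whole bins in the stretch had no tag in either library. It was therefore a short island of EHMTDD1 reads in sequence otherwise without reads, as some stretches without EHMTDD1 reads were for EHMT+. A stretch without EHMTDD1 reads, with 24 reads of EHMT+, covers most of the same sequence, at 23159067 to 23166792. The island is the run of 3 bins and the 10-kb window named above.

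**Figure D5:**
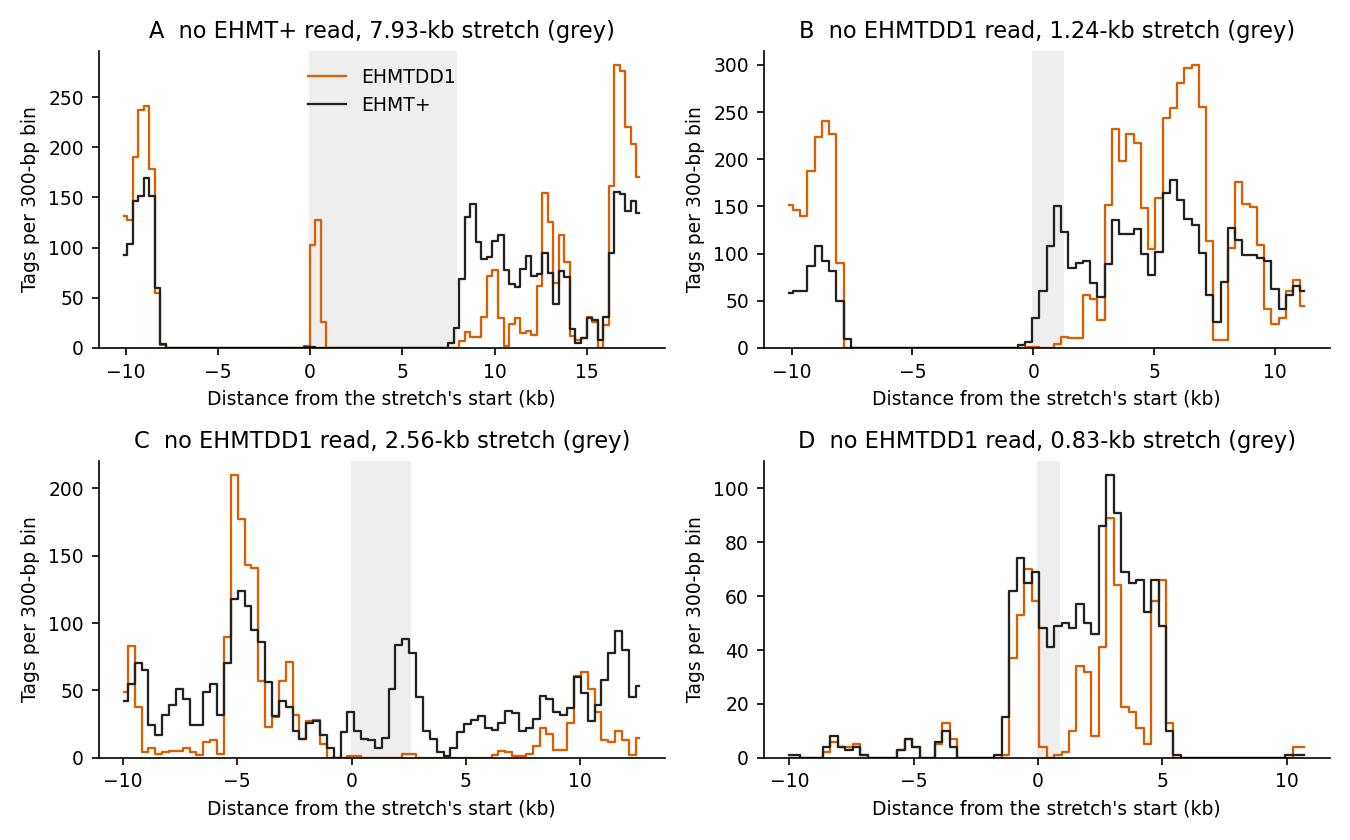
Tags per 300-bp bin (vertical axis) against distance in kb from the start of a stretch (horizontal axis), EHMTDD1 in orange and EHMT+ in black, with the stretch shaded grey, for the 1 stretch without EHMT+ reads (A) and 3 of those without EHMTDD1 reads (B to D). In A 127 reads of EHMTDD1 stand alone beside empty sequence, and in B 192 reads of EHMT+ lie where EHMTDD1 has none, with empty bins before it and, over 5 kb past its end, bins with up to 300 tags in EHMTDD1.

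Empty bins were common in the region, and the longest run of them, at 23123401 to 23135100, spanned 11.7 kb. Of the bins above the upper limit, 6.77% lay next to an empty bin, against 5.51% of all pericentric bins. Of the bins below the lower limit, 16 of 47 (34.0%) did. Among the 4135 bins not next to an empty bin, 826 were above the upper limit, about the same share as in all pericentric bins. Whether the empty bins hold repeats was not analysed here, and no input library was used, so the part of mappability or of chromatin recovery in these differences was not tested.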

How the data were processed

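H3K9me2 ChIP-seq was done on larvae, 1 library each of EHMTDD1 and EHMT+. The authors aligned 36-bp single reads (Illumina Analysis Pipeline, version not given in the sources used here) against BDGP Release 5, allowed 1 mismatch, kept unique positions, extended tags to 300 bp and reduced both libraries to the smaller total. The deposited files hold positions of extended tags with strand. The extension widens each tag over neighbouring bins, and unique mapping leaves repeats without tags.

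Tags were counted in 300-bp bins, bins without a tag in either library were left out, and log2 ratios used a pseudocount of 1. Ratios have exact conditional binomial 95% intervals and shares Wilson intervals. Counting was tested on simulated data. The region, lists and limits were chosen with earlier results of these data known. Regions named are the 100-kb windows with the extreme tag counts and ratios, the 5 highest and lowest 10-kb windows with at least 100 tags, the 5 longest runs beyond each limit and the 5 stretches with most reads. Bins, windows and stretches named beyond this rule were chosen after their values were seen. Alternatives covered pseudocount, filters, counting, bins, limits, scaling, boundaries and stretch settings. Gene annotation and sequence of Release 5 were not used here. The software was Python 3.11.15 with SciPy 1.17.1, NumPy 2.4.6, Matplotlib 3.10.9 and pandas 2.3.3.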

Additional observations from a re-analysis of the deposited data

How the results depend on the processing

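No paired analysis was possible because there was a single library for each genotype. The SD of the log2 ratio was 1.56 with a pseudocount of 0.5, 1.29 with a tag required in both libraries, 1.36 with at least 20 tags together, 1.32 with empty bins kept, 1.51 with tags counted by midpoint and 1.33 with 600-bp bins. The median log2 ratio was 0.15 with a tag in both libraries, 0.12 with at least 20 tags, 0 with empty bins kept and, chosen after seeing the data, 0.18 for the region begun 100 kb further in. Bins above the upper limit numbered 479 (21.3% of 2245) with 600-bp bins, which are fewer by construction, and 419 (9.57%) with limits of 3 SD. Bins below the lower limit numbered 26 (0.704%) with at least 20 tags, where the limits were set anew, and 21 (0.504%) by midpoint. They numbered 28 (1.25%) with 600-bp bins and 6 (0.137%) with limits of 3 SD. Euchromatic shares are not given for these settings, so these counts do not show whether the excess over the euchromatic bins remained.

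The ratio to the 1 Mb before the region was 1.45 in EHMTDD1 and 1.48 in EHMT+ with empty bins included, 1.00 in EHMTDD1 and 1.71 in EHMT+ by median, 1.66 in EHMTDD1 and 1.63 in EHMT+ begun 200 kb further in, 1.68 in EHMTDD1 and 1.70 in EHMT+ with the piRNA cluster, and 1.90 in EHMTDD1 and 1.93 in EHMT+ with at least 20 tags. Against 2 Mb before the region it was 1.70 in EHMTDD1 and 1.68 in EHMT+. By median with empty bins included, chosen after seeing the data, it was 0.657 in EHMTDD1 and 1.39 in EHMT+. Mean over median with empty bins kept was 2.19 in EHMTDD1 and 1.11 in EHMT+. Stretches without EHMTDD1 reads numbered 86 with at least 20 reads, 72 with at least 600 bp and 32 with extended tags, and those without EHMT+ reads 5 with at least 6 reads. The EHMT+ to EHMTDD1 ratio of totals was 0.966 begun 200 kb further in and 1.00 with at least 20 tags. Where no construction explains a value, the cause was not tested. Of 79 alternative values, 42 stayed within the spread or 1.5 times the count.

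With 1 library per genotype, the spread between larvae of a genotype is unknown. Many bins had few tags, and the pseudocount pulls their ratios towards 0.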

Other observations

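The piRNA cluster left out of all bins above, at 23273964 to 23314199, had 6500 tags in EHMTDD1 (162 per kb) and 5584 tags in EHMT+ (139 per kb) over its 40.2 kb.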
